A study of Mus musculus with 48 samples.

Results

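The heat shock proteins and DNAJ chaperones are the genes of the mouse whose symbol begins with Hsp90, with Hspa, Hspb, Hspd, Hspe or Hsph and a digit, or with Dnaja, Dnajb or Dnajc and a digit. They were chosen by name alone, without pseudogenes, and came to 72 of the 56748 genes in the count tables: 3 of the HSP90 family, 14 of the HSP70 and HSP110 families, 8 small heat shock proteins, the mitochondrial pair Hspd1 and Hspe1, 4 DNAJA, 13 DNAJB and 28 DNAJC genes. Bulk RNA-seq gave their mRNA in 3 tissues: liver, brown fat (brown adipose tissue, BAT) and the white fat pad of the epididymis (epididymal white adipose tissue, eWAT). The male mice lacked angiotensinogen in hepatocytes (hepAGT-/-) or were littermates that kept it (hepAGT+/+). Housing was at 20 to 22 °C (room temperature, RT) or at 30 °C, which is thermoneutral (TN) for a mouse. What all groups shared was 12 weeks of Western diet, whose cholesterol content was 0.2% and whose milk fat content was 21%. Each of the 12 combinations of tissue, genotype and housing had 4 libraries, 48 in all, and the labels used here do not name the Cre driver of the deletion. The series title states the purpose: the effect of the deletion on adiposity and hepatic steatosis under thermoneutral housing.

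Molecular chaperones bind unfolded proteins and help them fold, cross membranes or reach the proteases that remove them. HSP70 proteins are the central machines and work through cycles of ATP hydrolysis, which J-domain proteins (the DNAJ families) start and which HSP110 proteins and other nucleotide exchange factors complete. Separate sets serve the cytosol, the endoplasmic reticulum (ER) and mitochondria, so that a brown fat cell, packed with mitochondria that burn fuel for heat in the cold, carries much of the mitochondrial set. The heat shock factor HSF1 drives the inducible cytosolic members, and the unfolded protein response drives the ER members.

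To show the regulatory sequence of members that the results turn on, the 150 bases just before the transcription start are given below for 5 genes, 5′ to 3′ on the gene's own strand, from RefSeq on GRCm38.p6. Capitals mark matches to the motifs searched on both strands. These were GAANNTTC, a pair of HSF1 units head to head, TTCNNGAA, a pair tail to tail, GAANNTTCNNGAA, which joins both (so that each of its matches also holds a match to each pair), and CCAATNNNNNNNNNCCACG, the ER stress response element. The stretches are Hspa1a at chr17:34972157-34972306 on the minus strand, Hspa1b at chr17:34959239-34959388 (minus), Hspe1 at chr1:55087998-55088147 (plus), Hsp90b1 at chr10:86705445-86705594 (minus) and Hspa5 at chr2:34771940-34772089 (plus).
Hspa1a: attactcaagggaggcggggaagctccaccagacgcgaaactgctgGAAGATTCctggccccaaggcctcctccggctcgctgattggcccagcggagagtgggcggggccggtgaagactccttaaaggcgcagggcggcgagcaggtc
Hspa1b: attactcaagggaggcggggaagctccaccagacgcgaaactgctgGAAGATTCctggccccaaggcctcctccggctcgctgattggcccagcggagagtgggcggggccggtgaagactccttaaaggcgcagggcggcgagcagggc
Hspe1: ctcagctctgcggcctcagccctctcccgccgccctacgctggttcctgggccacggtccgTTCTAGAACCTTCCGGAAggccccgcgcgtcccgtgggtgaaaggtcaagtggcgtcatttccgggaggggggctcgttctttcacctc
Hsp90b1: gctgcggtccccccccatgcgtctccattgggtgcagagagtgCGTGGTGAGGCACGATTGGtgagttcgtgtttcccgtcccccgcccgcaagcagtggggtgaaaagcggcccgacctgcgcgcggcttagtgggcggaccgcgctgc
Hspa5: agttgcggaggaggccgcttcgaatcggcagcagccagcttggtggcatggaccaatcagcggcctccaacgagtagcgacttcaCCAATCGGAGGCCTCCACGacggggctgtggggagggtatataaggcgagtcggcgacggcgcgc

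Hspa1a and Hspa1b, the inducible HSP70 pair, differed at 1 of these 150 bases, and both held GAANNTTC at positions -104 to -97 from the start. How reads that fit both genes were assigned is not given in the sources used here, so the separate values of this pair are uncertain. In Hspe1, which encodes the co-chaperonin HSP10, the capitals hold overlapping matches to the longer motif. Hspd1, which encodes the chaperonin HSP60, starts on the other strand beside it, and 285 bases of the pair's 300-base windows (250 before to 50 after the start) overlap. A window was found for 58 of the 72 members. GAANNTTCNNGAA was in 4 of them (6.9%: Dnajb6, Hspd1, Hspe1 and Hsph1), against 0.662% of all 27025 genes with a window. GAANNTTC was in 14 (24.1%) against 9.04%, and TTCNNGAA in 6 (10.3%) against 9.6%. For each of these motifs the matches of Hspd1 and Hspe1 lie on the same bases, so shared sites are counted for both genes. The ER element was in 3 (5.17%: Dnajc3, Hsp90b1 and Hspa5) against 0.137%. These are matches of letters, not measured binding.

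In units of 1000000 counts, the libraries held 23.7 to 36.5 in liver, 25.3 to 39.4 in BAT and 28.7 to 43.7 in eWAT, and the 72 genes took 0.517 to 0.875% of the counts of a library. Levels are in CPM (counts scaled to a library total of 1000000) after TMM scaling (trimmed mean of M values) within each tissue, and tests are edgeR quasi-likelihood tests with Benjamini-Hochberg adjustment over all genes tested in the tissue. A gene is called changed where its adjusted p is below 0.05. After the filter on low counts, 62 members were tested in liver, 66 in BAT and 67 in eWAT. Dnajb7, Dnajb8, Dnajc5g and Hspb9 were tested in none of them. Among all members left untested in a tissue, the highest level in any library was 2.86 CPM, for Hspb9 in eWAT. In plain CPM, without TMM scaling, Agt, the deleted gene, stood at 133 to 213 in the hepAGT-/- livers. It stood at 254 to 455 in the hepAGT+/+ livers, without overlap. The labels do not say which part of the gene is deleted, and they do not state beyond the littermate design that each library was a separate animal, so the p-values measure the spread between these libraries.

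Levels of marker genes, and all sums of marker genes here and below, are in plain CPM. Ucp1, which defines brown fat, stood at 1301 to 8276 in the BAT libraries and at most 14.8 elsewhere. Adipoq, which defines fat cells, stood at 2527 to 4620 in eWAT, 493 to 1375 in BAT and at most 3.02 in liver. Alb, which defines hepatocytes, stood at 34600 to 67160 in liver, 2.73 to 1700 in BAT and 22.3 to 3109 in eWAT. Among 13 epididymis genes in eWAT, the summed level was 939 CPM in hepAGT+/+ RT replicate 18 and at most 17.6 CPM in the other libraries. The sum of 12 skeletal muscle genes in BAT ran from 66.1 to 10080 CPM and passed 1000 CPM in 6 libraries (hepAGT-/- RT 14 and 19, hepAGT-/- TN 2 and 5, hepAGT+/+ TN 6 and 24), none of them hepAGT+/+ RT. Fits without these 6 keep all hepAGT+/+ RT libraries of BAT, and only the libraries not named here in the other BAT groups. For a call lost in such a fit, fewer libraries and less muscle RNA cannot be told apart. In bulk tissue, fewer cells of a type and less RNA per cell cannot be told apart.

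Levels between genes were compared per length, as means over 16 libraries of TMM-scaled CPM per kilobase. In liver and eWAT the same 3 genes led in the same order. These were Hsp90ab1, the constitutive cytosolic HSP90 (248 in liver and 250 in eWAT), Hspa8, the constitutive cytosolic HSP70 (207 and 210), and Hspd1 (176 and 130). In liver Hsp90b1 and Hspa5, the ER forms of HSP90 and HSP70 (GRP94 and BiP), followed at 157 and 144. In BAT Hspa9, Hspd1 and Hsp90ab1 led over all 16 libraries (283, 273 and 255), and the order of Hspa9 and Hsp90ab1 depended on housing. Hspa9, the mitochondrial HSP70 (mortalin), averaged 414 ± 37.8 in hepAGT+/+ and 337 ± 53.3 in hepAGT-/- at RT, but 189 ± 45.5 and 191 ± 49.9 at TN (SD, n = 4 each). Hsp90ab1 averaged 252 ± 37.0 and 256 ± 31.4 at RT and 243 ± 45 and 268 ± 42.7 at TN, so that Hspa9 was above it at RT and below it at TN in these means. Hspa12a, an atypical HSP70 relative, stood at 20.3 in eWAT, 6.01 in BAT and 0.272 in liver, and Dnajc22, a membrane J protein, at 59.4 in liver, 3.65 in BAT and 0.743 in eWAT. Each tissue was scaled on its own, so levels set across tissues are a description.

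Housing temperature went with the largest differences in BAT. Averaged over the genotypes, 10 of 66 members rose at TN against RT (15.2%) where 19.5% of all 18032 genes tested rose, and 20 fell (30.3%) where 19% of all genes fell. The median log2 fold change of the members was -0.10 and that of all genes 0.09. The members that fell included 8 of the 9 mitochondrial chaperones, together with Hspb8 and Dnajc22. Those that rose included Hspa1a, Hspa1b, Hspa12a, Hspa12b and Hsp90b1. The plot of all 66 tested members by role shows these values.

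**Figure D1:**
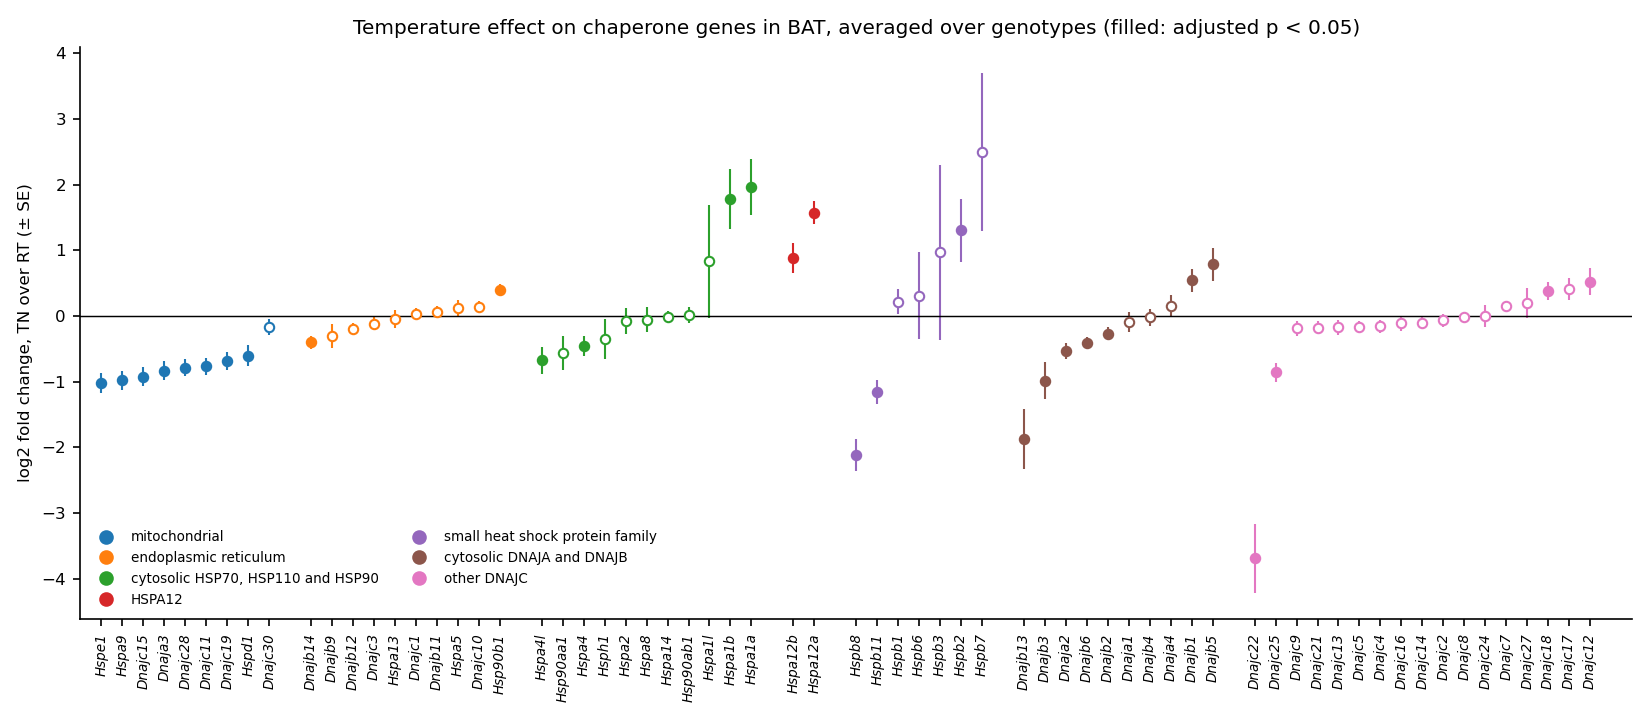
Log2 fold change of TN over RT in BAT, averaged over genotypes, for the 66 tested members, one point per gene with its standard error as the bar, grouped by role and filled where the adjusted p was below 0.05. All 9 mitochondrial members lie below 0, from -1.02 to -0.17, and 8 of them are filled.

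These directions are relative to the scaling. The TMM factors of BAT ran from 0.751 to 0.977 at RT and from 1.03 to 1.32 at TN, so that with library totals alone the median gene lay 0.55 higher at TN on the log2 scale rather than 0.09. With totals, 33 members were called higher (50%, against 45.8% of all genes) and 10 lower (15.2%, against 7.12%), and 86.6% of the calls over all genes were higher instead of 50.6%. The distance of the members' median from that of all genes was -0.19 with TMM and -0.18 with totals. All 10 members called higher were also called higher with totals. Of the 20 called lower, 10 were also called lower with totals (Dnaja3, Dnajb13, Dnajc11, Dnajc15, Dnajc22, Dnajc25, Hspa9, Hspb8, Hspb11 and Hspe1), 7 were below 0 but not called (Dnajb3 -0.54, Dnajc28 -0.32, Hspa4l -0.22, Dnajc19 -0.21, Hspd1 -0.14, Dnaja2 -0.07 and Hspa4 -0.0060), and Dnajb2, Dnajb6 and Dnajb14 turned to values of 0.20, 0.06 and 0.05 that were not called. Rises and falls below are relative to the TMM-scaled median gene. Statements on overlap of member genes between libraries also use TMM-scaled CPM and may differ in plain CPM. The share of all genes without overlap was not counted, so a lack of overlap says nothing particular to the members.

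Of the mitochondrial chaperones, 8 of 9 fell in BAT at TN and none rose, with a median log2 fold change of -0.78 (-0.32 with library totals, where 5 were called lower and none higher). Hspa9 pulls proteins into the matrix and folds them there. Its 4 hepAGT+/+ libraries stood at 1589, 1895, 1715 and 1941 CPM at RT and at 758, 665, 727 and 1101 CPM at TN. Its hepAGT-/- libraries stood at 1121, 1482, 1617 and 1596 CPM at RT and at 540, 1062, 853 and 840 CPM at TN. In these TMM-scaled values every RT library lay above every TN library, at the closest 1121 against 1101 CPM. The TMM factors were at most 0.957 in hepAGT-/- RT and at least 1.03 in hepAGT+/+ TN. In plain CPM the order of this closest pair therefore turns, and the separation is lost. On the log2 CPM scale the group means of Hspa9 fell from 10.80 ± 0.14 to 9.64 ± 0.32 in hepAGT+/+ and from 10.49 ± 0.25 to 9.64 ± 0.41 in hepAGT-/- (SD, n = 4 each). The averaged log2 fold change was -0.98 (SE 0.15, edgeR adjusted p = 4.49e-05).

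Hspe1, the lid of the HSP60 chamber, stood at 197, 306, 370 and 295 CPM in hepAGT+/+ RT and at 97.0, 97.9, 98.2 and 176 CPM in hepAGT+/+ TN. In hepAGT-/- it stood at 218, 266, 167 and 199 CPM at RT and at 119, 127, 131 and 138 CPM at TN. Within each genotype its RT and TN libraries did not overlap, while hepAGT+/+ TN replicate 24 lay above 1 hepAGT-/- RT library. Its averaged log2 fold change was -1.02 (SE 0.15, edgeR adjusted p = 4.09e-05). Hspd1, the chamber itself, stood at 845 to 1130 CPM in hepAGT+/+ RT, 454 to 836 CPM in hepAGT+/+ TN, 573 to 825 CPM in hepAGT-/- RT and 371 to 762 CPM in hepAGT-/- TN. Its groups overlapped in hepAGT-/- and not in hepAGT+/+, and its averaged log2 fold change was -0.60 (SE 0.16, edgeR adjusted p = 0.00625), or -0.14 with library totals (adjusted p = 0.425).

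**Figure D2:**
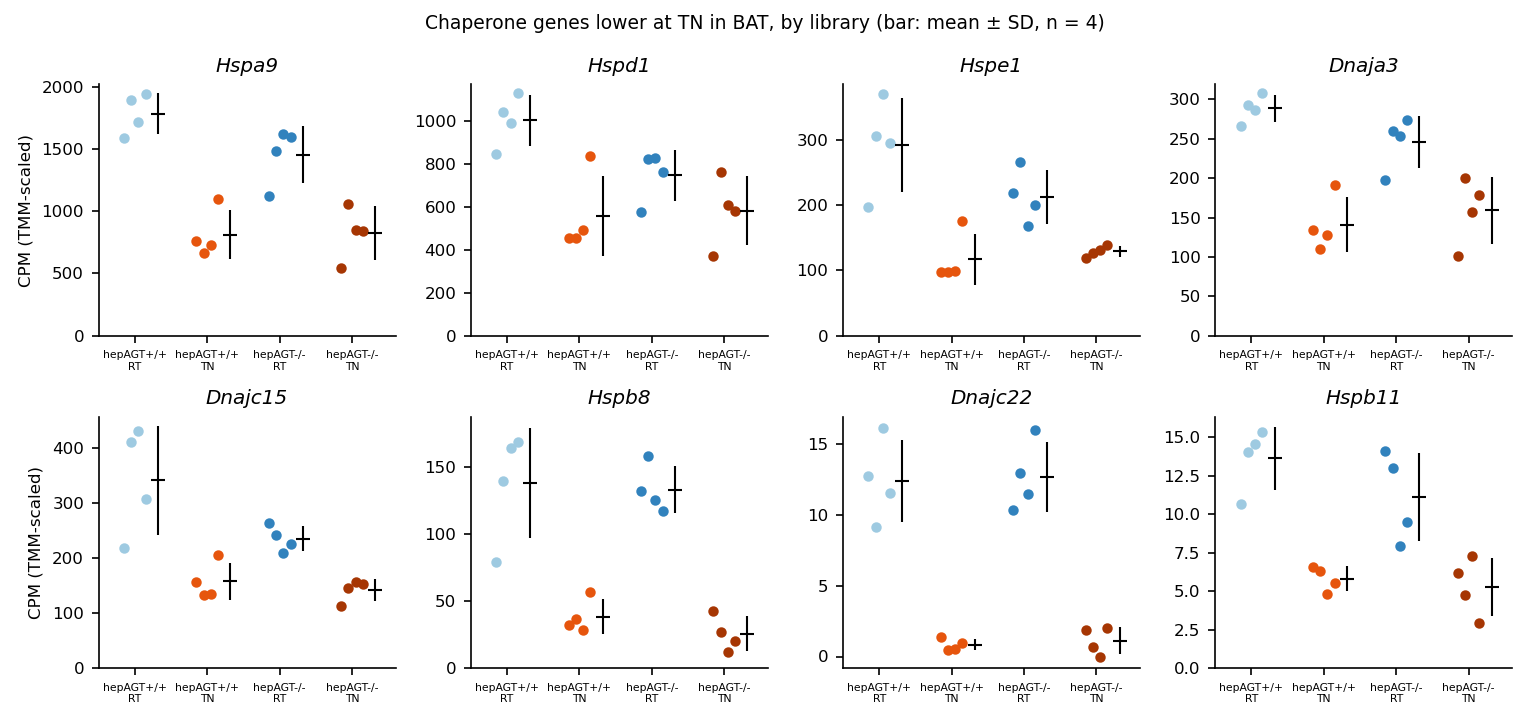
TMM-scaled CPM in BAT of 8 members called lower at TN, one point per library in 4 groups, with the mean and SD (n = 4) as the bar beside them. On this scale Hspa9, Hspb8, Dnajc15, Dnajc22 and Hspb11 show no overlap between the 8 RT and the 8 TN libraries. The share of all genes without overlap was not counted.

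Among the J proteins of mitochondria, Dnaja3 (TID1), the matrix partner of Hspa9, fell from a mean of 268 CPM at RT to 150 CPM at TN (log2 fold change -0.83, edgeR adjusted p = 0.000141). Dnajc15 and Dnajc19, which are tied to the import motor of the inner membrane, fell by 0.92 and 0.68 on the log2 scale. Dnajc11, a partner of the cristae-forming complex, fell by 0.77 and Dnajc28 by 0.78. Dnajc30 had a value of -0.17 that was not called (adjusted p = 0.311). Of 15 other genes of mitochondrial protein quality control, 10 fell and none rose (median -0.40). In plain CPM the group medians of their sum were 2081 at RT and 1880 at TN in hepAGT+/+, and 1953 and 1984 in hepAGT-/-. Grpel1, the nucleotide exchange factor of Hspa9, fell by 1.18 on the log2 scale, and the proteases Clpp and Lonp1 fell by 1.09 and 0.88. The sum of 10 brown adipocyte genes in BAT, in plain CPM, was 8272 to 13590 at RT and 3652 to 7768 at TN, and 5 of the 10 fell with none rising. Its part in the mitochondrial falls was not tested.

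Among the small heat shock protein family in BAT, 2 of 7 tested members fell and 1 rose. Hspb8, which works with the BAG3 chaperone in selective autophagy, stood at 79.2, 140, 164 and 169 CPM in hepAGT+/+ RT and at 31.7, 36.6, 28.0 and 57.0 CPM in hepAGT+/+ TN. In hepAGT-/- it stood at 132, 158, 125 and 117 CPM at RT and at 42.8, 27.0, 12.2 and 20.0 CPM at TN. The lowest RT library lay above the highest TN library. The log2 fold change of Hspb8 was -2.11 (SE 0.24, edgeR adjusted p = 8.5e-06). Hspb11, which despite its name is a subunit of the ciliary transport machinery (IFT25), fell from a mean of 12.4 to 5.54 CPM (log2 fold change -1.16, edgeR adjusted p = 5.6e-05), with no overlap. Hspb2, a small heat shock protein of muscle, was called higher (1.30, adjusted p = 0.0409), but not without the 6 muscle-high libraries (0.75, adjusted p = 0.348), nor in 8 of 16 cases where 1 library was left out (values from 0.93 to 1.69). Hspb7, also of muscle, was at 22.4 to 35.1 CPM in 4 of those 6 libraries and at most 2.82 CPM in the other 12, and its value of 2.50 was not called (adjusted p = 0.123).

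Dnajc22 had the largest fall of any member in BAT. It stood at 12.7, 9.15, 16.1 and 11.5 CPM in hepAGT+/+ RT, at 10.3, 12.9, 11.4 and 16.0 CPM in hepAGT-/- RT, at 1.36, 0.486, 0.543 and 0.960 CPM in hepAGT+/+ TN and at 1.87, 0.662, 0 and 1.98 CPM in hepAGT-/- TN. On the TMM scale each RT library was thus at least 4 times as high as each TN library. The log2 fold change was -3.69 (SE 0.53, edgeR adjusted p = 8.17e-05). Dnajc22 is high in liver. The sum of 10 hepatocyte genes in BAT, in plain CPM, was 493 to 1394 at RT and 818 to 3840 at TN, with overlap. Its part in the Dnajc22 values was not tested. Of the 17 tested members of the other DNAJC genes, Dnajc22 and Dnajc25 (-0.86) fell, and Dnajc12 (0.53) and Dnajc18 (0.38) rose. Of these, Dnajc12 and Dnajc18 were not called without the 6 muscle-high libraries (adjusted p = 0.0647 and 0.351), and with libraries left out 1 at a time their calls were lost in 11 and 9 of 16 cases, with values from 0.44 to 0.63 and from 0.34 to 0.47.

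Of the 11 cytosolic HSP70, HSP110 and HSP90 genes in BAT, 2 rose and 2 fell, near the shares of all genes, with a median of -0.06. With library totals 5 rose and none fell, where 45.8% of all genes rose. Hspa1a stood at 0.271, 0.804, 1.20 and 1.46 CPM in hepAGT+/+ RT and at 8.31, 1.83, 5.82 and 5.13 CPM in hepAGT+/+ TN. In hepAGT-/- it stood at 1.63, 0.818, 2.31 and 0.730 CPM at RT and at 8.02, 1.27, 3.04 and 2.41 CPM at TN. The hepAGT+/+ groups did not overlap and the hepAGT-/- groups did. The averaged log2 fold change of Hspa1a was 1.97 (SE 0.43, edgeR adjusted p = 0.00155), with 2.51 (adjusted p = 0.00528) in hepAGT+/+ and 1.42 (adjusted p = 0.123) in hepAGT-/-. That of Hspa1b was 1.78 (SE 0.45, edgeR adjusted p = 0.00467), with 2.64 (adjusted p = 0.00553) in hepAGT+/+ and 0.92 (adjusted p = 0.378) in hepAGT-/-. Without the 6 muscle-high libraries Hspa1a was 1.90 (adjusted p = 0.00587) and Hspa1b 1.17 (adjusted p = 0.0785).

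Other heat-inducible and constitutive members had mixed values. Hsph1 (HSP110) had a log2 fold change of -0.35 (adjusted p = 0.391) and Hsp90aa1, the inducible HSP90, of -0.57 (adjusted p = 0.0955). Hsp90aa1 was called lower without the 6 muscle-high libraries (-0.78, adjusted p = 0.0164). With library totals Hsph1 turned to 0.12, which was not called. Hspa8 had -0.06 (adjusted p = 0.837), and with library totals 0.41 (adjusted p = 0.0383). Hspa4 and Hspa4l, HSP110 relatives that act as exchange factors, fell by 0.46 and 0.67 on the log2 scale. The call of Hspa4 was lost without hepAGT+/+ RT replicate 18, hepAGT+/+ TN replicate 1, 6 or 7 or hepAGT-/- TN replicate 2 or 4 (values from -0.61 to -0.37), and that of Hspa4l without the 6 muscle-high libraries (-0.62, adjusted p = 0.136). Dnajb1 (HSP40), the inducible partner of HSP70, rose by 0.54 (adjusted p = 0.0173). Dnajb5 rose by 0.79, a call not made without the 6 muscle-high libraries (0.41, adjusted p = 0.244).

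Hspa12a and Hspa12b both rose in BAT. Hspa12a stood at 52.0, 37.0, 32.4 and 60.9 CPM in hepAGT+/+ RT and at 71.8, 70.6, 62.8 and 109 CPM in hepAGT+/+ TN. In hepAGT-/- it stood at 13.7, 11.8, 22.4 and 15.1 CPM at RT and at 66.0, 113, 85.4 and 60.7 CPM at TN. The hepAGT-/- RT libraries were the lowest of all and overlapped with no other group. The log2 fold change of Hspa12a with temperature was 0.78 (SE 0.25, edgeR adjusted p = 0.0247) in hepAGT+/+ and 2.37 (SE 0.26, edgeR adjusted p = 2.13e-05) in hepAGT-/-. The hepAGT+/+ call was lost without hepAGT+/+ RT replicate 15 or 17, without hepAGT+/+ TN replicate 24 (0.59, the lowest value) and without the 6 muscle-high libraries (0.57, adjusted p = 0.078). Hspa12b, best known from endothelial cells, had averaged 0.89 (SE 0.23, edgeR adjusted p = 0.00651), with 1.44 (adjusted p = 0.00391) in hepAGT+/+ and 0.34 (adjusted p = 0.564) in hepAGT-/-.

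**Figure D3:**
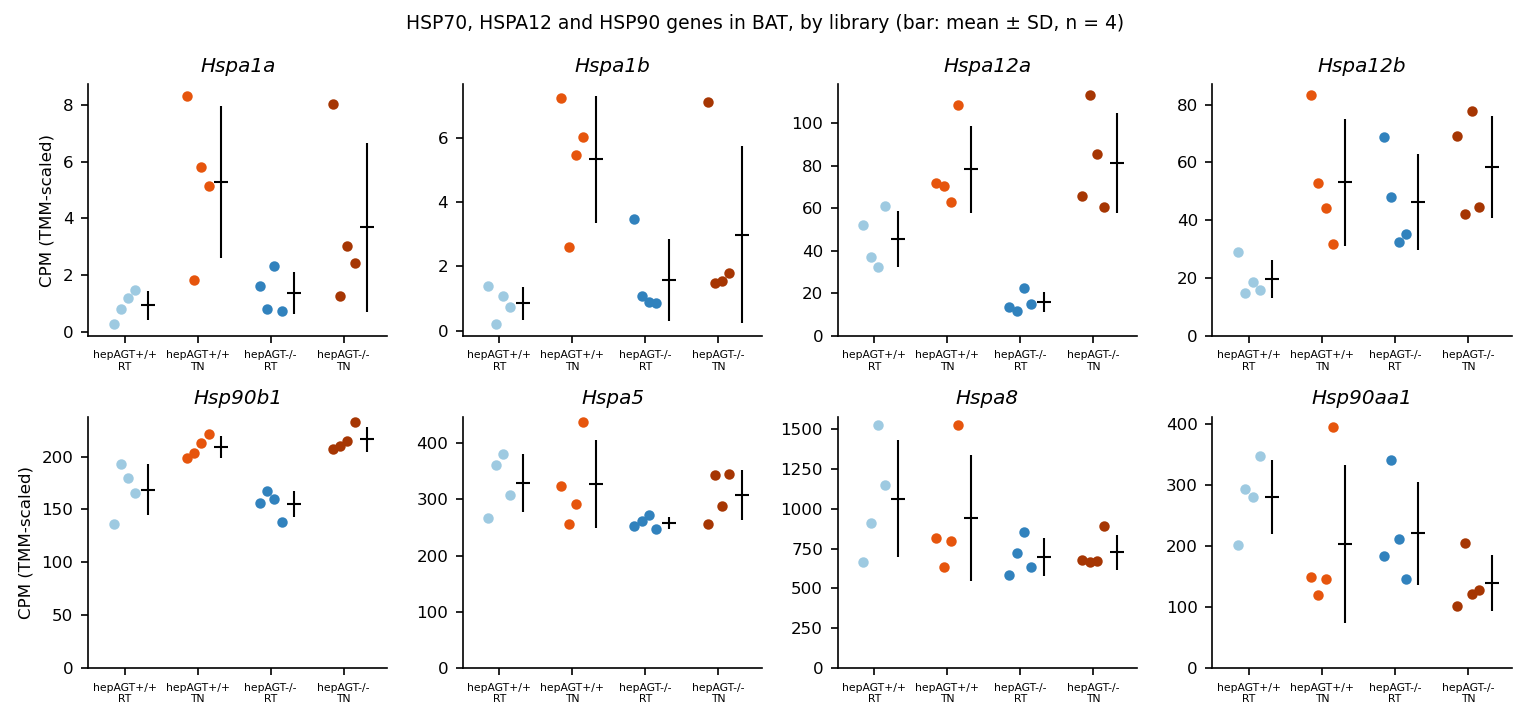
TMM-scaled CPM in BAT of 8 HSP70, HSPA12 and HSP90 genes, one point per library in 4 groups, with the mean and SD (n = 4) as the bar beside them. Hspa12a is lowest in the 4 hepAGT-/- RT libraries, and Hsp90b1 lies higher in each TN library than in any RT library.

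Of 10 ER members in BAT, Hsp90b1 rose and Dnajb14 (-0.40, and -0.28 with an adjusted p of 0.166 without the 6 muscle-high libraries) fell, with a median of -0.0040, while with library totals 8 rose and none fell, where 45.8% of all genes rose and 7.12% fell. Hsp90b1 stood at 136 to 193 CPM in the 8 RT libraries and at 199 to 233 CPM in the 8 TN libraries, without overlap. Its log2 fold change was 0.40 (SE 0.09, edgeR adjusted p = 0.00212), and 0.37 (adjusted p = 0.0562) without the 6 muscle-high libraries. Hspa5 had 0.12 (adjusted p = 0.451), and 0.58 (adjusted p = 0.000126) with library totals. Of 23 tested genes of ER folding and the unfolded protein response outside the set, 11 rose and 2 fell, with a median of 0.27.

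Of the remaining DNAJA and DNAJB genes in BAT, 2 of 10 rose and 5 fell: Dnaja2 by 0.53, Dnajb2 by 0.27, Dnajb3 by 0.98, Dnajb6 by 0.41 and Dnajb13 by 1.88 on the log2 scale. The call of Dnajb2 was lost in 10 of 16 cases where 1 library was left out (values from -0.31 to -0.21), and those of Dnajb2 and Dnajb6 without the 6 muscle-high libraries (adjusted p = 0.336 and 0.0647). In the lists around the set, 7 of 17 subunits of the CCT chaperonin and prefoldin fell with none rising (median -0.27), and of 32 cytosolic chaperone partners 4 rose and 10 fell (median -0.22). These calls are relative to the TMM scaling. In plain CPM the group medians of the summed CCT and prefoldin genes were 1189 at RT and 1351 at TN in hepAGT+/+, and 1005 and 1341 in hepAGT-/-. Those of the summed cytosolic partners were 1810 and 2101 in hepAGT+/+, and 1807 and 2138 in hepAGT-/-. Hsf1 had a value of 0.19 (adjusted p = 0.272). Of 15 immediate early genes, 13 rose and none fell, with a median of 2.06. Fosb rose by 3.44 and Egr1 by 2.12 on the log2 scale. In plain CPM the sum of 10 smooth muscle and mural cell genes was 307 to 532 at RT and 654 to 1216 at TN, with 8 of 10 higher, and that of 10 macrophage genes 46.8 to 124 at RT and 184 to 508 at TN, with all 10 higher. These lists shared the direction of the rise of Hspa1a, Hspa1b, Hspa12a and Hspa12b, and their part in it was not tested. The sum of 15 circadian clock genes, in plain CPM, was 535 to 598 at RT and 672 to 1190 at TN in hepAGT+/+. In hepAGT-/- it was 322 to 947 at RT and 577 to 972 at TN, with overlap. The part of the clock in the BAT values was not tested.

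Within genotypes in BAT, 5 members rose and 19 fell in hepAGT+/+, where 15.9% of all genes rose and 16.7% fell, and 4 rose and 13 fell in hepAGT-/-, where 6.64% rose and 8.52% fell. With library totals 26 rose and 9 fell in hepAGT+/+ (39.4% and 13.6%, against 37.6% and 5.52% of all genes), and 13 rose and 2 fell in hepAGT-/- (19.7% and 3.03%, against 19.7% and 3.17%). Called in both genotypes were 13 members, 54.2% of the hepAGT+/+ calls and 76.5% of the hepAGT-/- calls, each in the same direction: Hspa12a higher, and Dnaja2, Dnaja3, Dnajb13, Dnajb14, Dnajc11, Dnajc15, Dnajc22, Dnajc25, Hspa9, Hspb8, Hspb11 and Hspe1 lower. These 13 calls use the TMM scaling. With library totals, 6 of the 9 mitochondrial members were called lower in hepAGT+/+ (median -0.50) and 0 in hepAGT-/- (median -0.24). The temperature effect of Dnajc22 was -3.90 in hepAGT+/+ and -3.48 in hepAGT-/-, and that of Hspb8 was -1.85 and -2.38. Those called in hepAGT-/- and not in hepAGT+/+ were Dnajb3 (-1.29), Dnajc12 (1.00), Dnajc17 (0.84) and Hsp90b1 (0.48), and each of these 4 calls was lost without some 1 library, Hsp90b1 without hepAGT-/- RT replicate 19 or hepAGT-/- TN replicate 5. Without the 6 muscle-high libraries Hspa9 in hepAGT-/- was -0.40 (adjusted p = 0.405). The difference between the genotypes was called for no member (0% of all genes higher and 0% lower in edgeR), with 10 of 66 at an unadjusted p under 0.05 (10.2% of all genes). DESeq2 called 1 difference, that of Hspa12a. Leaving out the 6 muscle-high libraries, which left fewer libraries in both hepAGT-/- groups, took the hepAGT-/- count from 17 to 5. The averaged count went from 30 to 22, of which 20 were among the 30. The share of all genes called without these libraries was not counted.

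In eWAT fewer members were called for temperature. Averaged over genotypes, 3 of 67 members fell and none rose, where 0.729% of all 18933 genes fell and 1.49% rose. Hspd1 fell from a mean of 383 to 303 CPM (log2 fold change -0.33, edgeR adjusted p = 0.0192), Hspa9 from 554 to 437 CPM (-0.33, adjusted p = 0.0192) and Dnaja3 from 74.5 to 60.8 CPM (-0.28, adjusted p = 0.042). These 3 are mitochondrial, and the other 6 mitochondrial members were not called. The averaged values of all 9 were below 0 (median -0.15), as were those in hepAGT-/- (median -0.27), while in hepAGT+/+ 5 of 9 were (median -0.05). The sum of 10 macrophage genes was 585 to 783 CPM at RT and 987 to 1137 CPM at TN in hepAGT-/-, and 807 to 1150 and 1230 to 2043 CPM in hepAGT+/+, without overlap within a genotype. Its part in the falls was not tested. With library totals 2 of the 3 were called, Dnaja3 not (adjusted p = 0.073), and over all genes 77.5% of the calls were higher instead of 67.2%. The call of Hspa9 was lost without hepAGT+/+ TN replicate 7 and that of Dnaja3 without any of 10 of the 16 libraries.

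The same 3 genes were called lower in hepAGT-/- eWAT, where 1.02% of all genes rose and 0.718% fell. There Hspa9 stood at 653, 603, 573 and 698 CPM at RT and at 473, 453, 434 and 436 CPM at TN, without overlap, and had a log2 fold change of -0.49 (SE 0.09, edgeR adjusted p = 0.0184). Hspd1 had -0.41 (adjusted p = 0.0337) and Dnaja3 -0.41 (adjusted p = 0.0408). Each of the 3 calls was lost when some 1 library was left out, and with library totals Hspa9 alone was called, and over all genes 76% of the calls were higher instead of 58.8%. In hepAGT+/+ eWAT no member was called (0% of all genes in either direction), with 4 of 67 at an unadjusted p under 0.05 (6.99% of all genes) and none called by DESeq2. The interaction was called for no member, with 6 of 67 at an unadjusted p under 0.05 (7.6% of all genes) and none by DESeq2. Hspa1a (0.45) and Hspa1b (-0.04) had averaged values in eWAT that were not called, as had Hsph1 (0.19), Hspa8 (-0.07), Hspa5 (0.07) and Hsp90aa1 (0.01), and the values of Hspa1b and Hsp90aa1 changed sign when single libraries were left out.

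In liver no member was called for temperature by edgeR or DESeq2. Averaged over genotypes, 0.153% of all 17594 genes rose and 0.125% fell, and 10 of 62 members had an unadjusted p under 0.05 (11% of all genes). In hepAGT+/+ 0% rose and 0.0227% fell, with 8 members under 0.05 unadjusted (7.25% of all genes), and in hepAGT-/- 0.102% rose and 0.0114% fell, with 6 (10.5% of all genes). Hspa1a had an averaged value of 0.83 (SE 0.67), Hspa1b of 0.53 (SE 0.32), Hspa5 of -0.23 (SE 0.14), Hspa8 of 0.22 (SE 0.10), Hsp90aa1 of 0.02 and Hsph1 of 0.01. Those of Hsp90aa1 and Hsph1 changed sign when single libraries were left out. Of the 9 mitochondrial members 6 had negative values in liver.

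**Figure D4:**
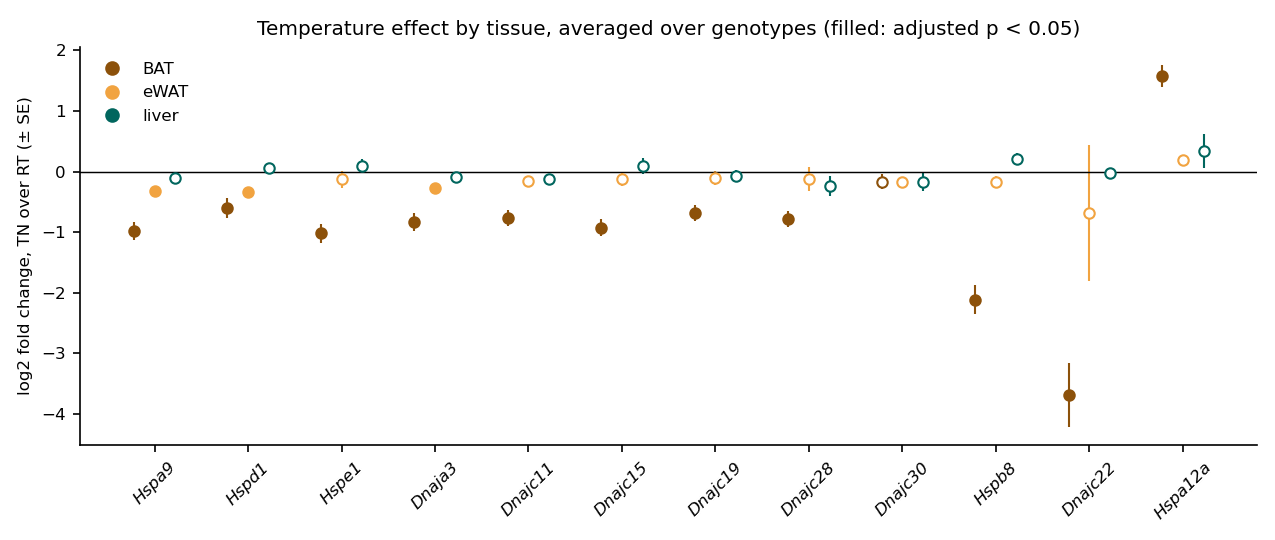
Log2 fold change of TN over RT averaged over genotypes in BAT, eWAT and liver for the mitochondrial members and Hspb8, Dnajc22 and Hspa12a, with the standard error as the bar and filled points where the adjusted p was below 0.05. The BAT point of Hspb8 lies at -2.11 and that of Dnajc22 at -3.69, while eWAT has filled points for Hspa9, Hspd1 and Dnaja3 and liver has none.

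The temperature effects of the tissues were then compared directly in 1 model of all 48 libraries, with 69 members among 21910 genes tested. The effect in BAT was below that in liver for 17 members and above it for 4, where 9.76% of all genes were below and 7.02% above. It was below that in eWAT for 14 and above it for 5, where 8.49% were below and 7.99% above. Both comparisons share the BAT libraries. Replicate numbers recur across tissues within 1 combination of genotype and housing, and this model takes all libraries as independent. With a block for these numbers, Dnajc22, Hsp90b1 and Hspa1b, among others, were not called against eWAT. For Hspb8 the difference in log2 fold change was -2.32 (SE 0.23, edgeR adjusted p = 6.69e-10) from liver and -1.94 (SE 0.23, edgeR adjusted p = 6.7e-08) from eWAT. For Hspa9 it was -0.85 and -0.64, for Hspe1 -1.10 and -0.88, for Dnaja3 -0.73 and -0.54, and for Hspa12a 1.24 and 1.40. Dnajc22 differed by -3.67 (SE 0.81) and -3.02 (SE 0.88), the latter from a tissue where its mean per kilobase was 0.743 CPM. That call was lost without hepAGT-/- TN replicate 21 or hepAGT+/+ TN replicate 8 of eWAT (-2.20 at the least). Hspd1 differed from liver (-0.65, adjusted p = 0.00281) and was not called against eWAT, and Hspa1b differed from eWAT (1.83, adjusted p = 0.0113). Hsp90b1 lay above both, by 0.56 and 0.33, but the call against eWAT was lost in 26 of 32 cases where 1 library was left out (values from 0.28 to 0.36). With library totals 7 members lay below and 24 above liver (10.1% and 34.8%, against 4.51% and 22.6% of all genes), and 3 below and 20 above eWAT (4.35% and 29%, against 2.84% and 26.4%). No member differed between eWAT and liver (0.0274% of all genes above and 0.0548% below), with 8 of 69 at an unadjusted p under 0.05 (9.84% of all genes) and none called by DESeq2.

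The genotypes were compared at each temperature. In eWAT at RT, 3 of 67 members were higher in hepAGT-/- than in hepAGT+/+ and 4 lower, where 1.2% of all genes were higher and 3.13% lower. None of the 7 overlapped between the groups. The share of all genes without overlap was not counted, so this says nothing particular to the members. Hspa9 stood at 653, 603, 573 and 698 CPM in hepAGT-/- and at 454, 464, 502 and 486 CPM in hepAGT+/+ (log2 fold change 0.41, SE 0.09, edgeR adjusted p = 0.0156). Dnaja3 was higher by 0.47 (adjusted p = 0.0114) and Dnaja1, a cytosolic J protein, by 0.49 (adjusted p = 0.0138). The temperature falls of Hspa9 and Dnaja3 in hepAGT-/- eWAT use the same hepAGT-/- RT libraries, so these calls are not independent. Hspb1 (HSP25), a small heat shock protein that binds actin, stood at 61.5, 45.5, 45.7 and 37.0 CPM in hepAGT-/- and at 87.9, 100.1, 83.0 and 104 CPM in hepAGT+/+ (-0.98, SE 0.22, edgeR adjusted p = 0.0218). Dnajb4 had -0.89 (adjusted p = 0.00799) and Dnajb13, a J protein of sperm and cilia, -1.12 (adjusted p = 0.0153). Dnajc6 (auxilin), which uncoats clathrin vesicles, had -2.92 (adjusted p = 0.025).

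Among these eWAT libraries, hepAGT+/+ RT replicate 18 is the one with the epididymis genes. The sum of 8 testis germ cell genes was 56.7 CPM there, 45.8 CPM in hepAGT-/- RT replicate 10, 80.6 CPM in hepAGT+/+ TN replicate 6 and at most 9.29 CPM in the other eWAT libraries. Dnajb13 stood at 20.1 CPM in the first and 11.4 CPM in the second of these, and its call was kept without either. Without hepAGT+/+ RT replicate 18 Dnajc6 (-2.62) and Hspb1 (-0.90) were not called and the other 5 were. The calls of Dnajc6 and Hspb1 were also lost without hepAGT-/- RT replicate 10, 16 or 19 or hepAGT+/+ RT replicate 13, that of Dnajc6 also without hepAGT+/+ RT replicate 15, and that of Hspa9 without hepAGT-/- RT replicate 19. In the same RT comparison the summed macrophage genes were 585 to 783 CPM in hepAGT-/- and 807 to 1150 CPM in hepAGT+/+, and the smooth muscle and mural cell genes 288 to 568 and 632 to 866 CPM. Their part in these differences was not tested. At TN no member differed by genotype in eWAT (0.174% of all genes higher and 0.412% lower), with 8 of 67 at an unadjusted p under 0.05 (13.7% of all genes) and none called by DESeq2.

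In liver the genotypes differed at TN, with 1 of 62 members higher in hepAGT-/- and 3 lower, where 1.34% of all genes were higher and 1.85% lower. Hspd1 stood at 436, 380, 418 and 381 CPM in hepAGT-/- and at 638, 492, 560 and 512 CPM in hepAGT+/+ (log2 fold change -0.45, SE 0.12, edgeR adjusted p = 0.0459). Hspe1, its neighbour and partner, went the other way, at 182, 247, 171 and 285 CPM in hepAGT-/- and 163, 134, 131 and 126 CPM in hepAGT+/+ (0.68, SE 0.17, edgeR adjusted p = 0.0305). Hspa9 had -0.44 (adjusted p = 0.0327) and Hspa4 -0.41 (adjusted p = 0.0417). None of the 4 overlapped between the groups, and here too the share of all genes without overlap was not counted. The call of Hspa4 was lost without any 1 of the 8 libraries, that of Hspd1 without 7 of them, of Hspa9 without 6 and of Hspe1 without 5, so that 0 to 3 calls were left. With library totals 2 members were called higher, Hspe1 among them, and none lower, and over all genes 70.3% of the calls were higher instead of 42%. The sum of 10 macrophage genes was 202 to 438 CPM in hepAGT-/- and 147 to 193 CPM in hepAGT+/+ at TN, with 1 of the 10 called higher, and that of 10 lymph node and B cell genes 19.8 to 41.5 and 8.97 to 17.5 CPM, also with 1 called higher. Neither sum overlapped between the groups, and their part in these differences was not tested.

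**Figure D5:**
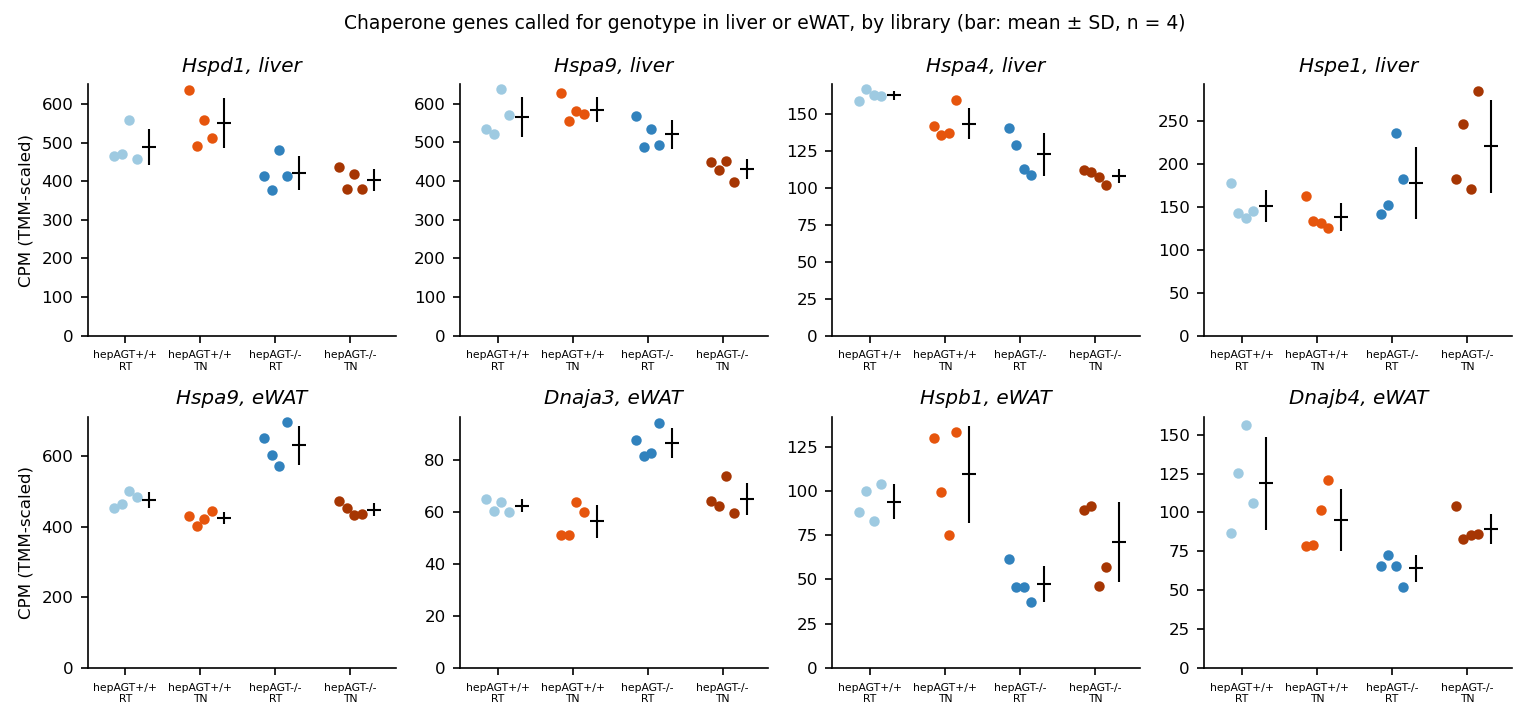
TMM-scaled CPM by library of Hspd1, Hspa9, Hspa4 and Hspe1 in liver and of Hspa9, Dnaja3, Hspb1 and Dnajb4 in eWAT, one point per library in 4 groups, with the mean and SD (n = 4) as the bar beside them. In liver at TN, Hspe1 lies higher and the other 3 lower in hepAGT-/-, and in eWAT at RT, Hspa9 and Dnaja3 lie higher and Hspb1 and Dnajb4 lower in hepAGT-/-.

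Elsewhere the genotype comparison called little. In liver at RT no member was called (0.0171% of all genes higher and 0.0682% lower in edgeR), with 10 of 62 at an unadjusted p under 0.05 (10.2% of all genes) and 1 called by DESeq2. The liver interaction was called for none (0% in either direction), with 4 of 62 under 0.05 unadjusted (7.33% of all genes) and none by DESeq2. In BAT at TN none was called (0% in either direction), with 3 of 66 under 0.05 unadjusted (5.24% of all genes) and none by DESeq2. In BAT at RT only Hspa12a was called by edgeR (0 members higher and 1 lower, where 0.0555% of all genes were higher and 0.0333% lower), and its adjusted p lay just under the threshold. Its difference was -1.53 (SE 0.26, edgeR adjusted p = 0.0499). The call was lost without hepAGT-/- RT replicate 9, 10 or 19 or hepAGT+/+ RT replicate 15, 17 or 18, with values from -1.75 to -1.36 and adjusted p up to 0.188 when any 1 library was left out. Without the 6 muscle-high libraries Hspa12a had -1.87 (adjusted p = 0.012). At TN the difference of Hspa12a was 0.05 (adjusted p = 0.999), and the interaction was 1.58 (SE 0.36, adjusted p = 0.383 in edgeR and 0.0233 in DESeq2).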

How the data were processed

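The authors deposited raw counts per gene and library. Per the submitters' processing notes, these used fastp, STAR 2.6.1d and featureCounts 1.5.0-p3 with the build GRCm38 (mm10). The annotation version and the strand and multi-mapping settings are not given in the sources used here, so genes with near-identical copies (Hspa1a and Hspa1b) or pseudogenes (Hspa9, Hspd1, Hspe1) may share reads. Per the labels' protocols, RNA came from snap-frozen tissue, and libraries were sequenced as read pairs.

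Of 56748 gene IDs, 52073 (91.8%) had a symbol. The rule also left out 14 pseudogenes. Each tissue was fitted alone in R 4.3.3 with edgeR 4.0.16 (filterByExpr at a minimum count of 10, TMM, robust quasi-likelihood, 4 groups), and the 48 libraries together for differences between tissues. Log2 CPM used a prior count of 2. DESeq2 1.42.0, other scalings and filters, 8-library fits, a replicate block and fits without single libraries were alternatives. Library totals and the fit without the 6 muscle-high BAT libraries were chosen after seeing the data. The scripts were tested on simulated data.

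Named genes were up to 5 members per direction with the largest called change and a mean of at least 1 CPM, plus Hspa1a, Hspa1b, Hsph1, Hsp90aa1, Hspa8, Hspa5 and Hspa12a. All other called members in BAT were added, and the role groups were drawn up, after values were seen. Members and lists were chosen with earlier results of these data known.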

Additional observations from a re-analysis of the deposited data

Results flagged for a closer look

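Among 172 groups of 4 libraries screened for a library far from the other 3, 11 had one, and chance gives about 1 in 20, or 8.6. In BAT, hepAGT-/- TN replicate 2, the library with the most skeletal muscle RNA, stood apart for Dnajb5 (24.3 CPM), Dnajb13 (0.846 CPM), Hspa1b (7.12 CPM) and Hspb2 (4.87 CPM), and hepAGT+/+ TN replicate 24, also muscle-high, for Hspa4 (179.6 CPM), Hspd1 (836 CPM) and Hspe1 (176 CPM). The others were hepAGT-/- RT replicate 9 for Hspa1b (3.47 CPM) and hepAGT+/+ RT replicate 15 for Dnajb2 (44.1 CPM) in BAT, hepAGT-/- TN replicate 3 for Dnajb4 (104 CPM) in eWAT, and hepAGT+/+ RT replicate 15 for Hspd1 (558 CPM) in liver.

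The temperature effect in BAT, as a log2 fold change, differed from that in eWAT by the test of the difference for Dnajb5 (0.83), Dnajb13 (-2.15), Dnajc22 (-3.02), Hsp90b1 (0.33), Hspa1b (1.83), Hspa12a (1.40), Hspa12b (1.10), Hspb8 (-1.94), Hspb11 (-0.85) and Hspe1 (-0.88). It differed from that in liver for Dnajb1 (0.56), Dnajc12 (1.02), Dnajc15 (-1.0), Dnajc22 (-3.67), Hsp90b1 (0.56), Hspa12a (1.24), Hspb8 (-2.32), Hspb11 (-1.29) and Hspe1 (-1.10). Those of these calls that a replicate block lost are named in the next section.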

How the results depend on the processing

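Counts of called members moved as follows. With the 8 libraries of a comparison alone, BAT genotype at RT went from 1 to 0, liver genotype at TN from 4 to 1, BAT temperature in hepAGT-/- from 17 to 10 and eWAT temperature in hepAGT-/- from 3 to 0. With DESeq2 the BAT interaction went from 0 to 1, BAT genotype at RT from 1 to 3, eWAT genotype at RT from 7 to 12, liver genotype at RT from 0 to 1 and at TN from 4 to 9, and eWAT temperature in hepAGT-/- from 3 to 7. BAT genotype at RT also went to 0 with RLE scaling, a 1 CPM filter and library totals, liver genotype at TN to 2 with totals and 1 without a filter, eWAT temperature in hepAGT-/- to 1 with totals, and BAT temperature in hepAGT-/- to 5 without the muscle-high libraries. The cause was not tested. Shares of all genes called were counted only with TMM, RLE and library totals. Counts from the other fits, here and below, thus say nothing particular to the members.

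Leaving out 1 library gave 26 to 30 calls for BAT temperature averaged, 18 to 26 in hepAGT+/+ and 8 to 15 in hepAGT-/-, 0 to 5 for BAT genotype at RT, 1 to 4 and 0 to 3 for eWAT temperature averaged and in hepAGT-/-, 4 to 8 for eWAT genotype at RT, 0 to 3 for liver genotype at TN, and 15 to 22 and 18 to 23 for BAT against eWAT and liver. Of the 30 averaged BAT calls 25 were made whichever library was left out, the others being Dnajb2, Dnajc12, Dnajc18, Hspa4 and Hspb2.

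Replicate numbers are not shared between groups of 1 tissue, and each number belongs to 1 combination of genotype and housing in all tissues. Between tissues, same-numbered libraries correlated from -0.471 to 0.136 and matched best in 6 of 11 (eWAT and liver), 5 of 13 (BAT and liver) and 2 of 11 cases (BAT and eWAT). With the replicate block, BAT against eWAT went from 19 to 7 and BAT against liver from 21 to 16. Among the named genes, Dnajb5 (adjusted p = 0.13), Dnajc22 (0.483), Hsp90b1 (0.474), Hspa1b (0.312), Hspa12b (0.0516) and Hspb11 (0.0756) were then not called against eWAT, nor Dnajb1 (0.115) against liver.

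Signs turned with library totals for Dnajb2 (0.20), Dnajb6 (0.0616), Dnajb14 (0.0509), Hspa8 (0.405) and Hsph1 (0.12) in BAT averaged, for Hsp90aa1 (0.0536), Hspa5 (0.532), Hspa8 (0.375) and Hsph1 (0.287) in BAT of hepAGT+/+, and for Hsp90aa1 (0.0554) in liver of hepAGT-/-. In BAT of hepAGT+/+, Hspa5 (-0.01) also turned with 8 libraries (0.0207), DESeq2 (0.00882), RLE (0.00761) and no filter (0.015). Hspa1b in BAT of hepAGT-/- turned to -0.552 without the muscle-high libraries, and Hsp90aa1 in eWAT averaged to -0.0011 with a 1 CPM filter. Values that were not called also changed sign when single libraries were left out, within these ranges. In BAT, Hspa12a genotype at TN ran from -0.15 to 0.25, Hspa8 averaged from -0.223 to 0.0574, in hepAGT-/- from -0.051 to 0.175 and in hepAGT+/+ from -0.507 to 0.0536, and in hepAGT+/+ Hspa5 from -0.181 to 0.121 and Hsph1 from -0.747 to 0.0454. In eWAT, Hsp90aa1 averaged ran from -0.0339 to 0.0574, in hepAGT-/- from -0.025 to 0.146 and in hepAGT+/+ from -0.0982 to 0.0275, Hspa1b averaged from -0.222 to 0.0785 and Hspa5 in hepAGT-/- from -0.0205 to 0.0854. In liver, Hsp90aa1 averaged ran from -0.0361 to 0.0507, in hepAGT-/- from -0.126 to 0.0396 and in hepAGT+/+ from -0.0263 to 0.116, Hsph1 averaged from -0.0795 to 0.096 and in hepAGT-/- from -0.304 to 0.0356, and in hepAGT-/- Hspa1a from -0.587 to 0.242, Hspa1b from -0.541 to 0.182 and Hspa5 from -0.0772 to 0.125.

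Depth limits the members near 1 CPM, such as Hspa1a and Hspa1b in BAT at RT and Dnajc22 in BAT at TN.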
